A study of Mus musculus with 4 samples.

Results

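The 9 genes described here make, carry, break down or sense retinoic acid: Stra6, Rdh10, Rdh11, Aldh1a1, Aldh1a2, Crabp1, Cyp26b1, Rara and Rarg. They were picked by gene symbol from a table of 25265 genes, each symbol matched 1 row, and all 9 passed the filter on low counts. The table holds read counts of whole testes from C57BL/6 mice at postnatal day 56, in 4 libraries, 2 under the label control and 2 under Ythdf2-vKO. The series title places the Ythdf2 mutation in germ cells; the promoter of any Cre, the deleted segment, the alleles the controls carry and whether the libraries stem from separate animals are not given in the sources used here, so p-values measure only the spread between these libraries. Ythdf2 encodes a cytoplasmic reader of N6-methyladenosine (m6A) in RNA. Its own level was 51.0 and 53.5 CPM (counts scaled to library size) in control, against 66.3 and 67.0 CPM in libraries labelled Ythdf2-vKO, with a log2 fold change of 0.35 (SE 0.13, edgeR adjusted p 0.238). The targeted transcript was therefore not lower under the Ythdf2-vKO label, a total over the gene does not check a deleted segment, and all directions here compare labels, Ythdf2-vKO over control.

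Retinoic acid is made from vitamin A in a pair of oxidation steps, from retinol to retinal and from retinal to retinoic acid, and is cleared by CYP26 enzymes. It acts through retinoic acid receptors (RARs) that pair with retinoid X receptors on DNA. In the testis it drives spermatogonial differentiation, entry into meiosis and spermatid release. Sertoli cells, the somatic nurse cells of the tubule, supply it to spermatogonia through ALDH1A1, spermatocytes make it through ALDH1A2, and peritubular myoid cells around the tubule express the clearing enzyme CYP26B1.

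None of the 9 genes, higher or lower, passed the threshold of an adjusted p under 0.05 in edgeR's quasi-likelihood test, against 0.393% of all 21132 genes tested (0.279% higher and 0.114% lower). In the DESeq2 Wald test 0 of the 9 passed as well, against 1.32% of the genes with an adjusted p. At an unadjusted edgeR p under 0.05 there were 4 of the 9, against 14.1% of all genes. These were Rara, Stra6 and Aldh1a1, higher in the libraries labelled Ythdf2-vKO, and Rdh11, lower there. In 5 of the 9 genes the groups did not overlap in CPM, against 45.3% of all genes, the fifth being Rdh10. The median log2 fold change of the 9 was -0.02, with 4 positive and 5 negative, and that of all genes tested was 0.00.

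Promoter windows are shown for the 4 genes that frame these results: both receptors, which share a ligand and differ in their values, and the members with the highest and the lowest log2 fold change. Each window runs from 250 bases before to 50 bases from a RefSeq start site in build GRCm38.p6 and reads 5′ to 3′ on the gene's strand. The windows lie at chr11:98937468-98937767 (plus strand, Rara), chr15:102257473-102257772 (minus strand, Rarg), chr9:58133825-58134124 (plus strand, Stra6) and chr12:79191806-79192105 (minus strand, Rdh11). Capitals mark GGGCGG, the GC box bound by Sp1-type factors, and AGGTCA, the hexamer that nuclear receptors bind, on either strand.
Rara: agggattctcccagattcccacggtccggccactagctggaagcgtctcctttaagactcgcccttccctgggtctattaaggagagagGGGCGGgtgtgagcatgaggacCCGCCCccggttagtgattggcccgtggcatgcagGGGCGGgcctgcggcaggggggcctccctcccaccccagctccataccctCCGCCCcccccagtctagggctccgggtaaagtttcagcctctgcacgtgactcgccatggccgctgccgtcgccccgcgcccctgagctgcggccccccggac
Rarg: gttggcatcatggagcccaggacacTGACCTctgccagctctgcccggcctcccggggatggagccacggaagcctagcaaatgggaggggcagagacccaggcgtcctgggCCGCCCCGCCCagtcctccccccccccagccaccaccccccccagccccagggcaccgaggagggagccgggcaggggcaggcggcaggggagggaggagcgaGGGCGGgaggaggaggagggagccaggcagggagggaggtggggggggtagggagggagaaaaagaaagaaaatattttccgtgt
Stra6: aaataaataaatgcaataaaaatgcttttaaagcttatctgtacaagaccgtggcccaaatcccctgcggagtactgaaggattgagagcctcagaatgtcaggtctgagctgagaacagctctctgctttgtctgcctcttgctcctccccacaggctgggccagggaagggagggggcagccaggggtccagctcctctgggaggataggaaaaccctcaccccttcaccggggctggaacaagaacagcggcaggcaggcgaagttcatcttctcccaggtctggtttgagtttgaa
Rdh11: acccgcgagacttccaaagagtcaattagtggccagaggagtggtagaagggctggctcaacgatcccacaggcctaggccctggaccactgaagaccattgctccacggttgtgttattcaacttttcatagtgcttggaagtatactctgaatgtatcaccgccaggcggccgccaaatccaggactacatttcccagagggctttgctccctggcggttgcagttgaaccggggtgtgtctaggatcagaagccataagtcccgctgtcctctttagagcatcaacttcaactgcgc
Each of the 4 genes has more than 1 RefSeq start site, and which of them the testis uses was not measured, so the window printed is 1 example per gene. The printed Rara window holds 4 GC boxes. Of the other 3 Rara windows, 1 that overlaps it also holds 4 GC boxes, 1 holds neither motif, and 1 holds 1 AGGTCA and 1 GC box. The printed Rarg window holds 3 GC boxes, of which a neighbouring pair shares a base, and 1 AGGTCA on the reverse strand, and the other Rarg window holds neither motif. The printed windows of Stra6 and Rdh11 hold neither motif, but the other 3 Stra6 windows hold 1, 1 and 3 GC boxes and the other Rdh11 window holds 1 AGGTCA.

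RefSeq gave 17 such windows, some of them overlapping, for 8 of the members. GGGCGG occurred in 9 of them, against 35.7% of all 32851 mouse windows of the same length, and AGGTCA in 3, against 16.3%. The paired RAR elements with a spacer of 5 bases (DR5) or 2 bases (DR2), which contain the hexamer or its common variants in direct repeat, occurred in 0 of the 17, against 0.0974% and 0.268% of all windows. These are matches of letters within short windows, with no measurement of binding.

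Levels were compared between genes per kb of merged exons. Rdh11 stood highest, at 83.6 ± 10.04 CPM per kb (SD, n = 4 libraries), above 96.1% of the genes tested. Aldh1a2 followed at 45.5 ± 4.13 and Aldh1a1 at 30.5 ± 5.37 CPM per kb, and the ranges of these 3 genes over the 4 libraries did not overlap. Rara (6.22 ± 1.31), Crabp1 (5.72 ± 1.01) and Rdh10 (5.25 ± 0.446 CPM per kb) formed a middle group whose neighbours overlapped in range. Cyp26b1 lay below them at 3.37 ± 0.589 CPM per kb. Rarg (0.894 ± 0.157) and Stra6 (0.767 ± 0.381 CPM per kb) were lowest and overlapped each other, and Stra6 lay above 23.4% of the genes tested. Exon lengths are those of all annotated isoforms merged, so a gene whose testis isoform is short reads lower on this scale.

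**Figure D1:**
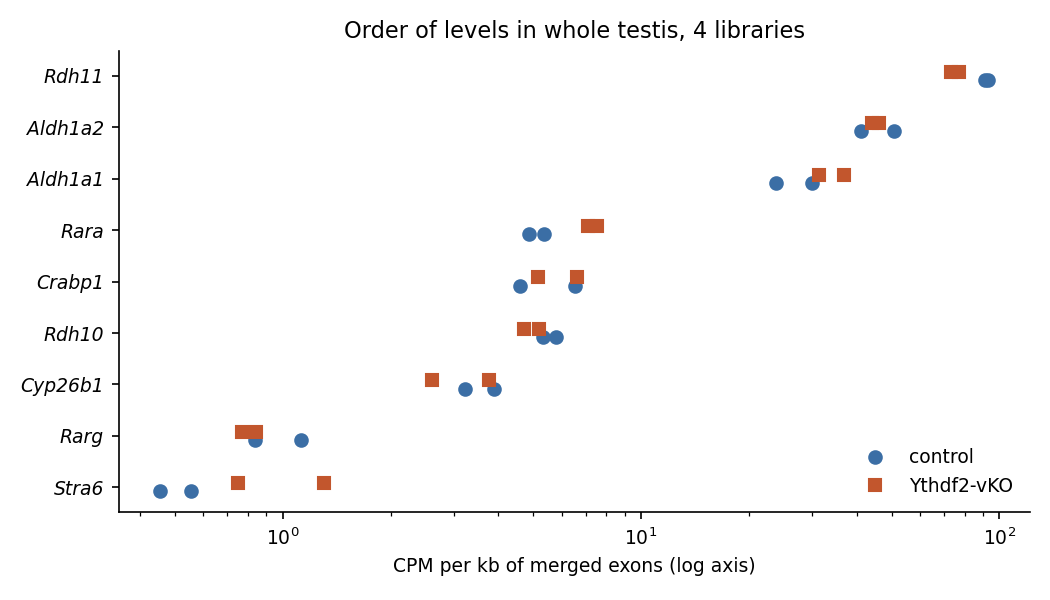
Level of each of the 9 genes per kb of merged exons on a log axis, 1 point per library (circles control, squares Ythdf2-vKO). Rdh11 and the retinal dehydrogenases Aldh1a2 and Aldh1a1 lie above 20 CPM per kb in every library, and Rarg and Stra6 lie at or below 1.31.

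Stra6 encodes the membrane receptor that takes retinol up from its plasma carrier, and in testis it is known from Sertoli cells. Reads numbered 62 and 97 in control, against 204 and 118 under the Ythdf2-vKO label. Scaled, they came to 2.65 and 3.24 CPM in control, against 7.62 and 4.37 CPM in libraries labelled Ythdf2-vKO. Both of the latter lay above both controls, and replicate 1 stood far above replicate 2. The fitted difference was 2.03-fold, a log2 fold change of 1.02 (SE 0.29, edgeR adjusted p 0.155, unadjusted p 0.00399). Without Ythdf2-vKO replicate 1 the log2 fold change was 0.57, and over all 14 alternatives its adjusted p ranged from 0.0116 to 0.884. Stra6 (ENSMUSG00000032327, chromosome 9, 58063788 to 58153996, plus strand) overlaps Ccdc33 on the opposite strand without shared exon bases. Whether reads were assigned by strand is not given in the sources used here. Ccdc33 had 192 and 183 CPM in control, against 174 and 177 CPM in libraries labelled Ythdf2-vKO (log2 fold change -0.09, SE 0.12, edgeR adjusted p 0.788). The part of Ccdc33 reads in the value of Stra6 was not tested.

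RDH10 and RDH11 interconvert retinol and retinal, with RDH10 known as the main enzyme of the first oxidation step in embryos. Rdh11 (ENSMUSG00000066441, chromosome 12, 79174337 to 79192293) had 322 and 315 CPM in control, against 266 and 253 CPM in libraries labelled Ythdf2-vKO. The replicates of each group lay close together and the groups were apart. The ratio was 0.814, a log2 fold change of -0.30 (SE 0.12, edgeR adjusted p 0.271, unadjusted p 0.024), and it ran from -0.33 to -0.26 when each library was left out in turn. Rdh10 (ENSMUSG00000025921, chromosome 1, 16105774 to 16133734) had 24.1 and 22.1 CPM in control, against 21.6 and 19.6 CPM in libraries labelled Ythdf2-vKO. The groups were separated by a gap narrower than the distance between replicates, and the log2 fold change was -0.16 (SE 0.15, adjusted p 0.685). Per kb, Rdh11 was 16.1 and 17.2 times Rdh10 in control against 14.8 and 15.5 times under the Ythdf2-vKO label. The Rdh11 transcript is 85.5% identical to that of Gm7880 over 888 nt. No counts of Gm7880 were given, and how reads shared by the 2 were counted is not stated.

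**Figure D2:**
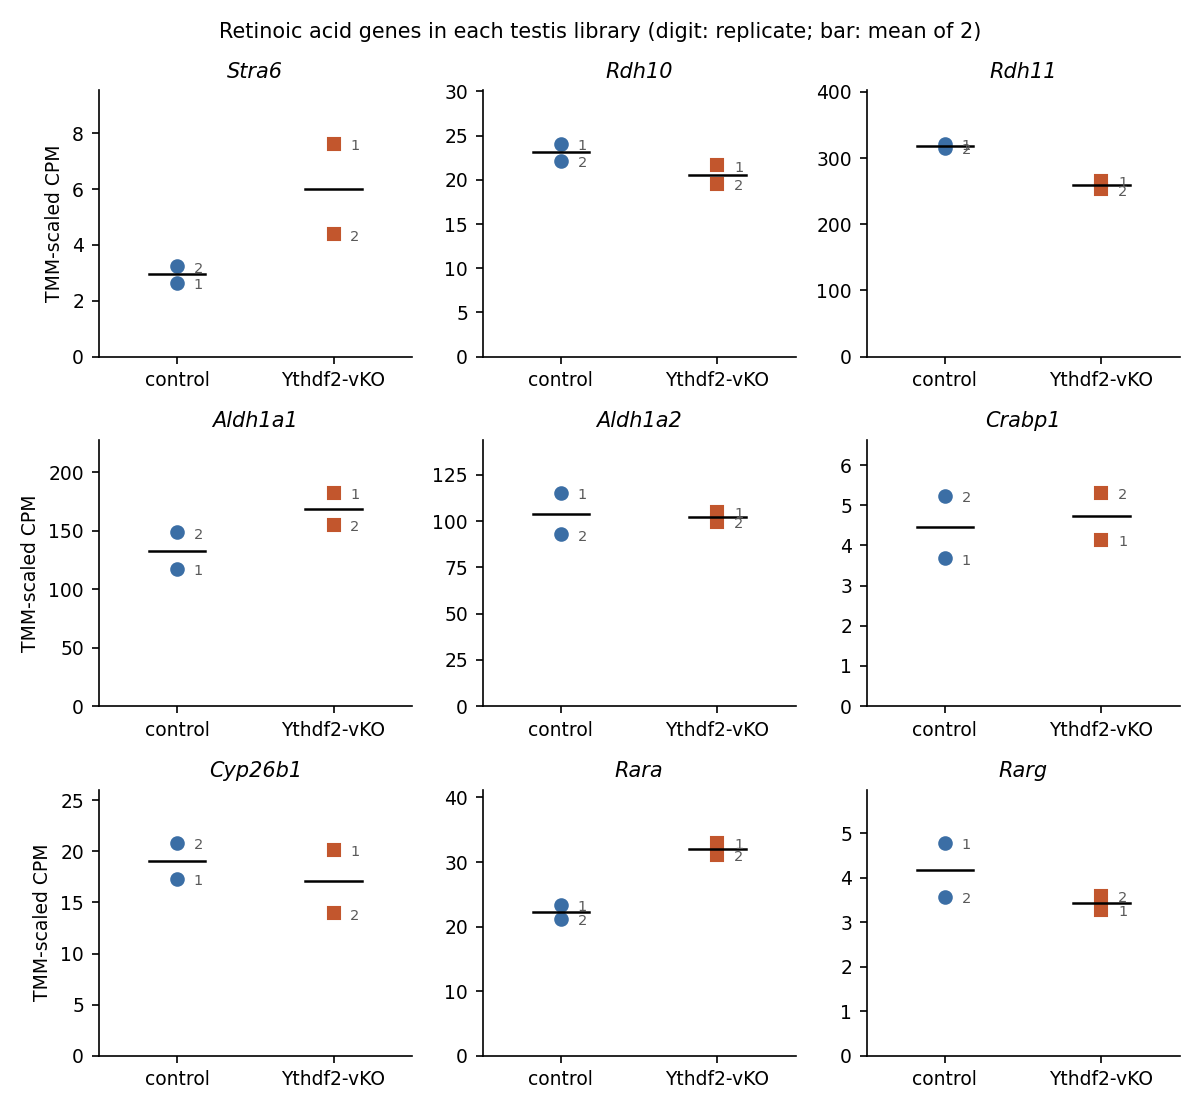
TMM-scaled CPM of each gene in each library, with an axis from 0 in every panel, the digit giving the replicate and the bar the mean of 2 libraries. The groups are apart in Stra6, Rdh10, Rdh11, Aldh1a1 and Rara, and Stra6 in Ythdf2-vKO replicate 1 (7.62 CPM) stands well above replicate 2 (4.37 CPM).

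The retinal dehydrogenases carry out the second, irreversible step. Aldh1a1 (ENSMUSG00000053279, chromosome 19, 20492715 to 20643465), the form of Sertoli and Leydig cells, had 117 and 149 CPM in control, against 182 and 155 CPM in libraries labelled Ythdf2-vKO. Control replicate 1 was low, and control replicate 2 lay close below Ythdf2-vKO replicate 2. The ratio was 1.27, a log2 fold change of 0.34 (SE 0.14, edgeR adjusted p 0.304, unadjusted p 0.033). It was 0.17 without control replicate 1, 0.52 without control replicate 2 (adjusted p 0.00303) and 0.22 without Ythdf2-vKO replicate 1. Its transcript is 88.8% identical to that of its neighbour Aldh1a7 over 2036 nt. Aldh1a7 had 6.12 and 9.11 CPM in control, against 14.9 and 12.9 CPM in libraries labelled Ythdf2-vKO. How reads shared by the pair were counted is not stated, so the value of Aldh1a7, the less abundant copy, is uncertain.

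Aldh1a2 (ENSMUSG00000013584, chromosome 9, 71215789 to 71296243), the germ cell form, had 115 and 92.8 CPM in control, against 105 and 99.5 CPM in libraries labelled Ythdf2-vKO. The values of the libraries labelled Ythdf2-vKO lay between those of the controls, and the log2 fold change was -0.02 (SE 0.13, edgeR adjusted p 0.964). It was 0.047 with library totals alone as the scaling. Per kb, Aldh1a2 was 2.14 and 1.36 times Aldh1a1 in control, against 1.26 and 1.40 times under the Ythdf2-vKO label, and the groups' ratios overlapped. The exact two-sided permutation p was 0.667, also 0.667 after Benjamini-Hochberg adjustment over the 3 ratios tested. With 2 libraries against 2 the smallest possible value is 0.333, so this test could not reach 0.05 and decides nothing.

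CRABP1 binds retinoic acid in the cytosol, and CYP26B1 oxidises it for removal. Crabp1 (ENSMUSG00000032291, chromosome 9, 54764748 to 54773110), known in testis from spermatogonia, had 3.68 and 5.24 CPM in control, against 4.15 and 5.30 CPM in libraries labelled Ythdf2-vKO. Replicate 2 was the higher in each group, the groups overlapped, and the log2 fold change was 0.08 (SE 0.26, edgeR adjusted p 0.936). Cyp26b1 (ENSMUSG00000063415, chromosome 6, 84571414 to 84593908) had 17.3 and 20.8 CPM in control, against 20.2 and 13.9 CPM in libraries labelled Ythdf2-vKO. The latter enclosed control replicate 1, and the log2 fold change was -0.16 (SE 0.19, adjusted p 0.767). It was -0.33 with an offset for GC content and 0.078 without Ythdf2-vKO replicate 2.

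RARα, encoded by Rara, is known from Sertoli cells and is needed there for normal spermatogenesis, and RARγ, encoded by Rarg, is known from spermatogonia that are about to differentiate. Rara (ENSMUSG00000037992, chromosome 11, 98927818 to 98974942) had 23.4 and 21.2 CPM in control, against 33.0 and 31.1 CPM in libraries labelled Ythdf2-vKO. The gap between the groups was wider than the distance between replicates of either group. The ratio was 1.44, a log2 fold change of 0.52 (SE 0.14, edgeR adjusted p 0.137, unadjusted p 0.00281). Leaving out each library in turn gave 0.45 to 0.59, and an offset for GC content gave 0.32 (adjusted p 0.3002). Over all 14 alternatives the adjusted p of Rara ranged from 0.0153 to 0.734.

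Rarg (ENSMUSG00000001288, chromosome 15, 102234938 to 102257517) had 4.79 and 3.57 CPM in control, against 3.29 and 3.60 CPM in libraries labelled Ythdf2-vKO. Control replicate 1 was high and the other 3 libraries lay together, with a log2 fold change of -0.27 (SE 0.26, edgeR adjusted p 0.701) that was -0.06 without control replicate 1. Per kb, Rara was 4.77 and 5.80 times Rarg in control against 9.80 and 8.43 times under the Ythdf2-vKO label. These ratios did not overlap between groups, and the exact two-sided permutation p was 0.333 (0.50 adjusted over the 3 ratios), the smallest that 2 libraries against 2 allow, as it was for Rdh11 over Rdh10.

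**Figure D3:**
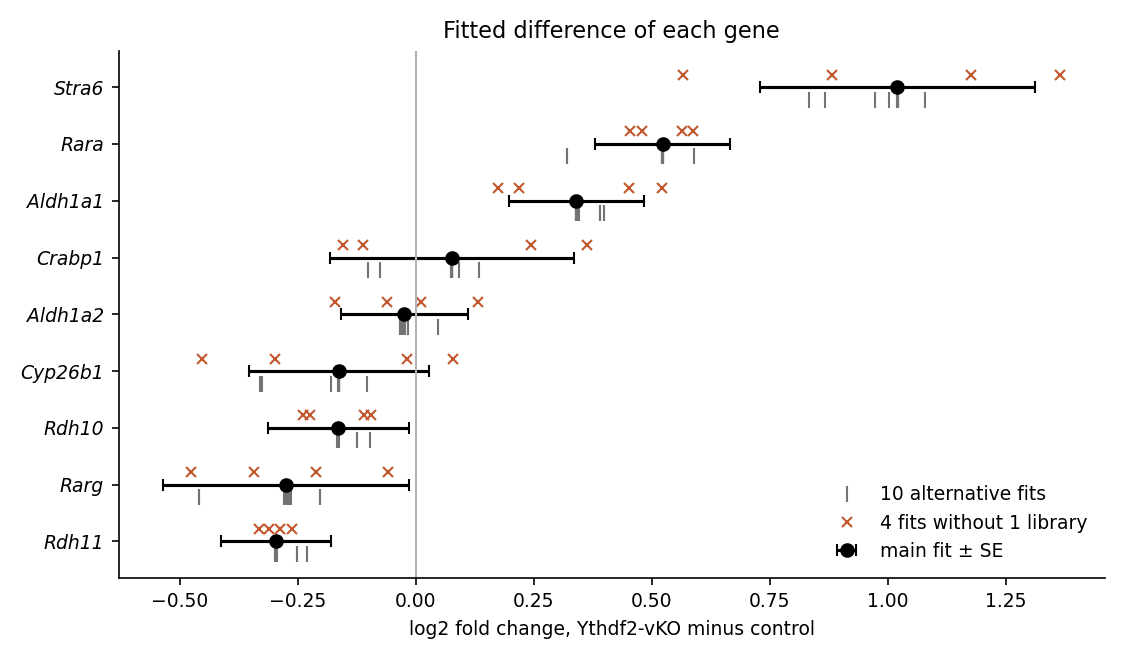
Log2 fold change of each gene with its standard error (black), under 10 alternative fits (grey ticks above or below the point) and under 4 fits that each leave out a library (crosses). Stra6, Rara and Aldh1a1 stay above 0 and Rdh11, Rdh10 and Rarg below 0 in every fit, and the crosses of Stra6 run from 0.57 to 1.36.

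The libraries differed in their GC bias, and 5 of the 9 transcripts were GC-rich. The Spearman correlation across genes of a library's deviation with transcript GC content was 0.0222 and -0.396 in control replicates 1 and 2. It was 0.254 and 0.185 in libraries labelled Ythdf2-vKO. Across the same genes, the Spearman correlation of the log2 fold change with GC content was 0.29. Transcript GC content was 59.2% for Rara, 58.8% for Rarg, 57.4% for Crabp1, 56.7% for Cyp26b1 and 56.3% for Stra6, against a median of 48.9% for all genes. Among these 5, Rara and Stra6 had positive log2 fold changes of 0.52 and 1.02, and Rarg, Crabp1 and Cyp26b1 had -0.27, 0.08 and -0.16. Rdh11 and Aldh1a1, which differed in opposite directions, had a GC content of 46.3% and 46.1%. With an offset for GC content the log2 fold change was 0.32 for Rara, 0.87 for Stra6, -0.46 for Rarg, -0.33 for Cyp26b1, -0.10 for Crabp1, 0.39 for Aldh1a1 and -0.25 for Rdh11.

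GGACT, a common core of the sequence that is methylated to m6A, was counted in the longest annotated transcript of each gene. Rara had 9 copies, or 2.66 per kb, and Stra6 had 6, or 1.95 per kb. The other 7 members had 0 to 4 copies and at most 0.920 per kb. The median of all genes was 1.02 per kb, with quartiles of 0.554 and 1.52. Rara and Stra6 also had the highest log2 fold changes of the 9. Among the other pathway genes, Dhrs3 had the most copies per kb, 2.57, and a log2 fold change of 0.22. Dhrs4 had 2.16 copies per kb and -0.71, Lrp1 had 2.02 and 0.25, and Aldh1a7 had 0 copies and 0.86. No methylation was measured, and these genes were picked out after their values were seen.

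Whole testis mixes cell types, so fewer cells of a type and less RNA per cell cannot be told apart. Of 14 Sertoli markers, all 14 had a positive log2 fold change, 1 was called higher (Wt1, 0.71, edgeR adjusted p 0.0418), against 0.279% of all genes tested, and none was at 0. At an unadjusted p under 0.05 there were 9 of the 14 higher, against 7.65% of all genes. Their summed level was 1181 and 1235 CPM in control, against 1670 and 1479 CPM in libraries labelled Ythdf2-vKO. Most of each sum came from Clu, at 658 and 715 CPM in control, against 934 and 801 CPM in libraries labelled Ythdf2-vKO (log2 fold change 0.34). The median log2 fold change of the 14 was 0.45, against 0.00 for all genes. Of 8 Leydig markers 7 were positive and 0 were called, with a median log2 fold change of 0.38. These summed to 318 and 381 CPM in control, against 499 and 383 CPM in libraries labelled Ythdf2-vKO. The Sertoli median thus lay beside 0.52 for Rara, 0.34 for Aldh1a1 and 1.02 for Stra6, and the part of Sertoli or Leydig cell content in these values was not tested. Of 4 erythroid markers 3 were tested, 0 were called and 3 were higher at an unadjusted p under 0.05, with summed levels of 9.41 and 9.61 CPM in control, against 19.9 and 12.8 CPM in libraries labelled Ythdf2-vKO. Their median deviation from the 4-library mean (log2) was -0.38 and -0.32 in control, against 0.65 and 0.03 in libraries labelled Ythdf2-vKO. Stra6 deviated by -0.56 and -0.31 in control, against 0.81 and 0.07 in libraries labelled Ythdf2-vKO. Ythdf2-vKO replicate 1 was thus the highest library for both. It was also the highest for the medians of Sertoli (0.27), Leydig (0.36) and endothelial markers (0.20). The same held for undifferentiated (0.29) and differentiating spermatogonia (0.13), but not for the other marker lists. The part of blood content in the value of Stra6 was not tested.

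All 8 elongating spermatid markers had a negative log2 fold change and 0 were called; they summed to 9688 and 8045 CPM in control, against 7404 and 7550 CPM in libraries labelled Ythdf2-vKO, with a median of -0.30 beside -0.30 for Rdh11. Their part in the value of Rdh11 was not tested. The deviation of Cyp26b1 from its 4-library mean (log2) was -0.05 and 0.22 in control, against 0.17 and -0.35 in libraries labelled Ythdf2-vKO. The median of 6 peritubular myoid markers deviated by -0.38 and 0.32 in control, against 0.15 and -0.19 in libraries labelled Ythdf2-vKO, so both Cyp26b1 and the myoid median were higher in control replicate 2 than in control replicate 1 and higher in Ythdf2-vKO replicate 1 than in replicate 2. Of the 6 myoid markers 2 were positive and 0 were called, with a median log2 fold change of -0.05. These summed to 228 and 257 CPM in control, against 250 and 203 CPM in libraries labelled Ythdf2-vKO. Most of each sum came from Actg2, at 180 and 176 CPM in control, against 172 and 148 CPM in libraries labelled Ythdf2-vKO. The sums are thus not a level of the list as a whole. Unlike the myoid median, Actg2 was not higher in control replicate 2 than in control replicate 1. Which cells its reads came from was not measured. The median of 7 macrophage markers deviated in the same order as the myoid median, by -0.25 and 0.37 in control, against 0.16 and -0.05 in libraries labelled Ythdf2-vKO. The part of either cell type in the value of Cyp26b1 was not tested.

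**Figure D4:**
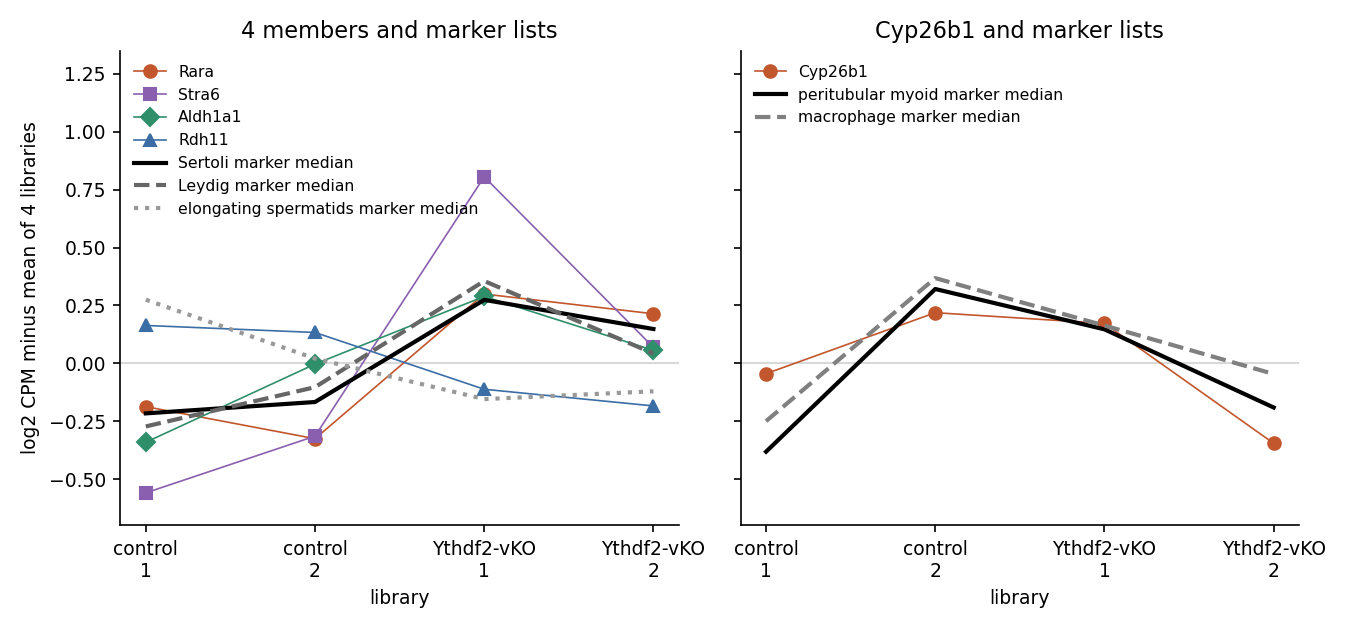
Deviation of log2 CPM from the mean of 4 libraries for Rara, Stra6, Aldh1a1 and Rdh11 (left) and for Cyp26b1 (right), with the median of marker lists as thick lines; lines join the libraries only to guide the eye. Sertoli markers run from -0.22 in control replicate 1 to 0.27 in Ythdf2-vKO replicate 1, where Stra6 reaches 0.81.

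Another 67 genes of the retinoid pathway were listed, of which 54 were in the table and 49 were tested. In edgeR 0 of the 49 were called, 8 were higher and 3 lower at an unadjusted p under 0.05, and their median log2 fold change was 0.13. The corresponding shares of all genes were 7.65% and 6.47%. The DESeq2 Wald test called 1 of them, Dhrs4. Of 7 tested genes of retinol uptake, transport and storage 0 were called, with a median of 0.14. Lrat, which stores retinol as esters, had a log2 fold change of 0.14 (adjusted p 0.7997). Among the 49 listed genes compared, Aldh1a7 (Euclidean distance 0.430 in centred log2 CPM over the 4 libraries) and Meiosin (0.548) were near Stra6 in pattern.

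Of 13 tested genes that interconvert retinol and retinal or cleave carotene, 0 were called and the median was 0.13. At an unadjusted p under 0.05, 3 were lower and 0 higher, against 6.47% and 7.65% of all genes. Dhrs4, a retinal reductase, had 31.6 and 29.0 CPM in control, against 17.6 and 19.5 CPM in libraries labelled Ythdf2-vKO. Its log2 fold change of -0.71 (SE 0.15) had an adjusted p of 0.0615 in edgeR, and of 0.0149 in the DESeq2 Wald test. Adh4, an alcohol dehydrogenase that accepts retinol, had 8.73 and 11.1 CPM in control, against 5.90 and 5.60 CPM in libraries labelled Ythdf2-vKO, a log2 fold change of -0.79 (SE 0.21, edgeR adjusted p 0.123). Bco1, which cleaves beta-carotene to retinal and had the highest level per kb of this list (16.8 ± 3.61 CPM per kb, SD, n = 4), had 46.1 and 51.0 CPM in control, against 29.7 and 43.8 CPM in libraries labelled Ythdf2-vKO. The log2 fold change of Bco1 was -0.40, SE 0.18 (edgeR adjusted p 0.327), and -0.15 without Ythdf2-vKO replicate 1. Rdh14, with -0.27 (adjusted p 0.487), was nearest to Rdh11 in pattern, at a distance of 0.0995.

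The remaining enzymes and carriers were few. Of 3 other retinal dehydrogenases tested, Aldh1a7 had the largest log2 fold change, 0.86 (SE 0.21, edgeR adjusted p 0.106), subject to the shared reads described above. Fabp5, a fatty acid-binding protein that also delivers retinoic acid to the nucleus, had 4.32 and 6.30 CPM in control, against 9.79 and 9.93 CPM in libraries labelled Ythdf2-vKO, a log2 fold change of 0.88 (SE 0.22, edgeR adjusted p 0.110). Cyp26a1, the other CYP26 enzyme tested, had 40 and 46 reads in control, against 26 and 23 under the Ythdf2-vKO label. Its log2 fold change was -0.83 (SE 0.39, edgeR adjusted p 0.371).

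Of 13 tested receptors and cofactors 0 were called, the median was 0.05, and 1 was higher at an unadjusted p under 0.05, against 7.65% of all genes. That gene was Rxra, a partner of the RARs, with 43.6 and 36.7 CPM in control, against 55.8 and 48.5 CPM in libraries labelled Ythdf2-vKO (log2 fold change 0.38, SE 0.14, edgeR adjusted p 0.258). With an offset for GC content its log2 fold change was 0.22. Rxra was the second nearest listed gene to Rara in pattern, at a distance of 0.178, after Kit at 0.141. The corepressor Ncor1, highest of this list at 10.7 ± 0.569 CPM per kb (SD, n = 4), had a log2 fold change of 0.01 (SE 0.12, edgeR adjusted p 0.993).

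Of 15 tested genes known to respond to retinoic acid, 0 were called, 11 had a positive log2 fold change, and 5 were higher and 0 lower at an unadjusted p under 0.05, against 7.65% and 6.47% of all genes. Their median log2 fold change was 0.22. The log2 fold change was negative in 4 of the 15, lowest in Cyp26a1 (-0.83, SE 0.39, edgeR adjusted p 0.371). Stra8, the classical meiotic target in germ cells, had 11.5 and 17.2 CPM in control, against 16.3 and 12.9 CPM in libraries labelled Ythdf2-vKO, with overlapping groups and a log2 fold change of 0.02 (SE 0.21, edgeR adjusted p 0.981). Rec8, a meiotic cohesin and the highest of this list at 24.6 ± 2.87 CPM per kb (SD, n = 4), had 0.13 (SE 0.14, adjusted p 0.748). Meiosin, the partner of STRA8, had 13.9 and 11.6 CPM in control, against 22.2 and 14.1 CPM in libraries labelled Ythdf2-vKO, a log2 fold change of 0.51 (SE 0.21, edgeR adjusted p 0.311) that was 0.14 without Ythdf2-vKO replicate 1. Kit, the receptor that marks differentiating spermatogonia, had 0.41 (SE 0.16, adjusted p 0.289). Bhlhe40, a transcription factor, had 1.09 (SE 0.27, adjusted p 0.106), and Tgm2, a transglutaminase, had 0.76 (SE 0.26, adjusted p 0.242).

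**Figure D5:**
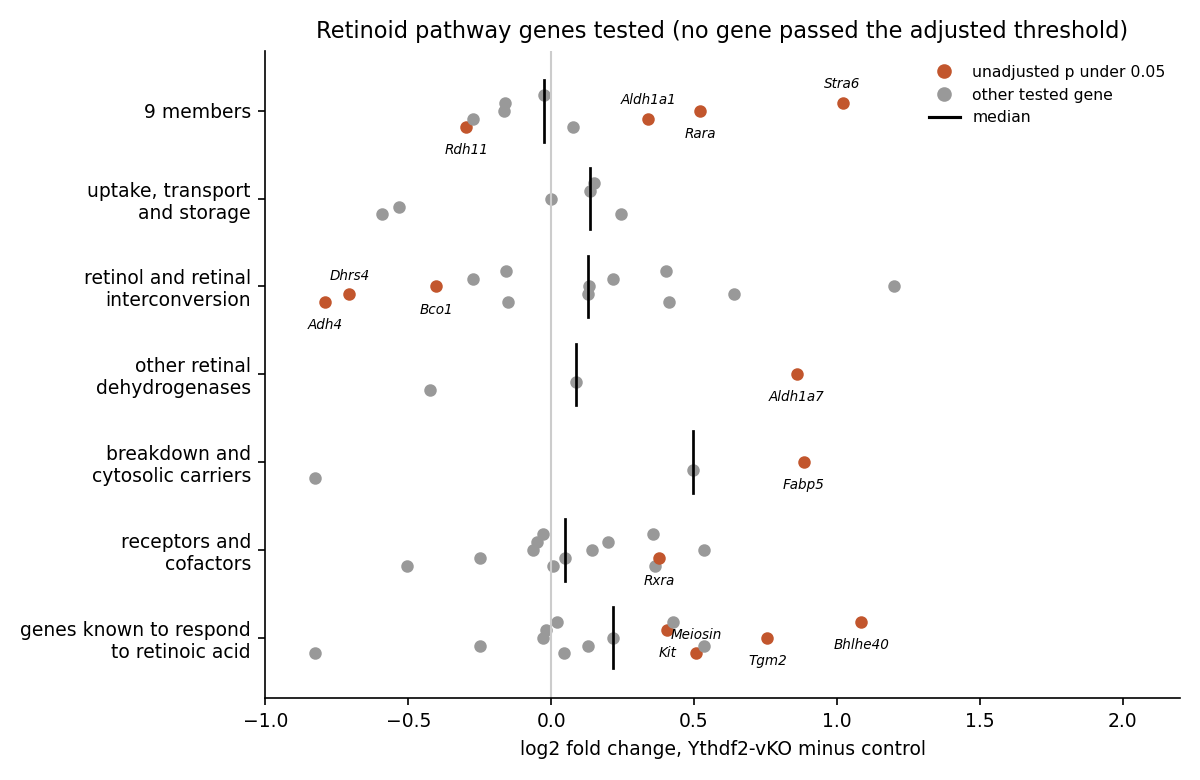
Log2 fold change of the 9 members and of the reported genes of 6 lists of other retinoid genes; orange points have an unadjusted p under 0.05 and are named, and the vertical bar is the median of all tested genes of the list. Cyp26a1, Dhrs3, Rarb and Nrip1 each stand in more than 1 list, and no gene passed the adjusted threshold.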

How the data were processed

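Libraries were made from total RNA of testes by ribosomal RNA depletion and a directional kit, per the labels' protocols. The authors deposited raw read counts per gene. HISAT2 2.1.0 and HTSeq 0.6.1p1 are named in the submitters' processing notes, and the genome build and the use of strand are not given in the sources used here. The deposited table also holds, per the file headers, a mean normalized count (a signal, counts divided by size factors), a log2 fold change and its error, a test score (stat), a p-value and an adjusted p-value; none of these is printed here.

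Total counts were 24862518 and 29561182 (control) and 26298245 and 26265700 (Ythdf2-vKO). Counts were tested with edgeR 4.0.16 (R 4.3.3, limma 3.58.1): TMM scaling, low genes removed with filterByExpr, robust quasi-likelihood testing of the genotype labels over all 4 libraries, two-sided, with Benjamini-Hochberg adjustment over 21132 genes and a threshold of 0.05. DESeq2 1.42.0 was an alternative. CPM are TMM-scaled. Centred log2 CPM used a pseudocount of 0.5. The code was tested on simulated data. Coordinates, exon lengths and transcripts came from GENCODE M21 (GRCm38), joined by identifier, and promoters from RefSeq; the authors' build may differ. Members and lists were chosen with earlier results of these data known. Named are Ythdf2, the 9 members, listed genes at an unadjusted p under 0.05 and the highest per kb of each list. Lrat, Rdh14, Dhrs3, Lrp1, Cyp26a1, Stra8, Ccdc33, Wt1, Clu and Actg2 were named in addition after their values were seen. An item that the rule would name is not reported here. The 12 marker lists cover somatic and germ cell types. Median log2 fold changes of lists for which the report gives none were 0.07 (macrophage), 0.37 (endothelial), 0.80 (erythroid, 3 genes tested), 0.32 and 0.10 (undifferentiated and differentiating spermatogonia). The rest were -0.11 (spermatocytes), 0.04 (round spermatids) and -0.62 (epididymis and rete testis, 2 genes tested of 8 listed). In these lists 0 genes were called.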

Additional observations from a re-analysis of the deposited data

How the results depend on the processing

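Fold changes of the 9 genes were recomputed under 14 alternatives each, 126 in all: 110 kept direction and side of the threshold, 8 passed it and 8 changed sign. Sign changes were confined to 3 genes: Aldh1a2, Cyp26b1 and Crabp1, with log2 fold changes of -0.02, -0.16 and 0.08 in the reported fit. Rdh10, also at -0.16, kept its sign. Aldh1a2 was 0.047 with library totals alone, and -0.17 to 0.13 when each library was left out, positive without control replicate 1 or Ythdf2-vKO replicate 2. Cyp26b1 was -0.45 to 0.078 when each library was left out, positive without Ythdf2-vKO replicate 2. Crabp1 was -0.10 with the GC offset, -0.077 with the GC offset and replicate block, and -0.16 to 0.36 when each library was left out, negative without control replicate 1 or Ythdf2-vKO replicate 2. The median of the 9 was 0.047 with library totals alone, -0.10 with the GC offset and -0.077 with the GC offset and replicate block.

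The labels do not say what the replicate numbers mark. Deviations of same-numbered libraries correlated at 0.0975 across genes in these 2 pairs, and no pairing was assumed. Blocking on replicate number gave 627 genes higher and 390 lower, and 2 members were called (Rara, adjusted p 0.0180; Stra6, 0.0361) and 7 other pathway genes. With the GC offset and replicate block there were 631 and 701 genes, 2 members (Aldh1a1, 0.00777; Stra6, 0.0302) and 8 other pathway genes, and Ythdf2 passed at 0.00801.

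Without the block, 59 genes were higher and 24 lower (71.1% higher). Library totals alone gave 181 and 37 (83% higher), the GC offset 80 and 61 (56.7%), the DESeq2 Wald test 137 and 80, and a fit without robust estimation 50 and 15. Each of library totals, the GC offset, the DESeq2 Wald test and no filter beyond 1 count called 1 other pathway gene, which was Bhlhe40 in the first and Dhrs4 in the others, and none called a member. DESeq2 size factors, at least 10 counts in every library and a prior count of 2 moved none of these counts by over 1.5 times. For these changes the cause was not tested.

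Leaving out each library in turn leaves 1 library in a group, assumed to vary like the others. It gave 30 to 1048 genes higher, 5 to 523 lower, 0 to 2 members called and 0 to 8 other pathway genes. The member calls were Rara without control replicate 1, Aldh1a1 and Stra6 without control replicate 2, and Stra6 without Ythdf2-vKO replicate 2. With 2 libraries per group, differences of the size seen in Rdh11 and Aldh1a1 did not pass adjustment in the reported fit.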
